A study of Homo sapiens with 4 samples.

Results

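*HSPB1* and 9 further heat shock chaperone genes were described in OVCA420 cells before and during treatment with TGF-β1. The 10 genes, *HSPB1*, *HSPA1A*, *HSPA1B*, *HSPA8*, *HSP90AA1*, *HSP90AB1*, *DNAJB1*, *HSPH1*, *HSPD1* and *HSPE1*, were chosen by symbol among the 33694 genes of the deposited matrices, and all 10 had a row. *HSPB1* was selected because of its high level after 1 day of treatment in these same libraries, so its own rise is a description and carries no test. The other 9 were chosen as chaperones, to see whether that rise was shared. OVCA420 cells derive from a human ovarian carcinoma and grow as an epithelium. The cytokine TGF-β1 can drive the epithelial-mesenchymal transition in such cells. The untreated cells (Ctrl) received no TGF-β1, and the 1-day, 3-day and 7-day cells received 10 ng/mL for the time named, with the medium and cytokine renewed during culture and all cells collected together. Each condition of this single cell line was measured as 1 droplet-based single-cell library, so there were 4 libraries, no replicates, no test and no p-value. Differences are therefore between libraries, and every interval given below is a 95% interval that covers counting error only.

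Heat shock proteins are molecular chaperones that hold, fold or refold other proteins. *HSPB1* encodes the small heat shock protein HSP27, which binds unfolding proteins without using ATP and also associates with actin filaments and intermediate filaments. The HSP70 proteins (*HSPA1A* and *HSPA1B*, induced by stress, and *HSPA8*, made constitutively) work in ATP-driven cycles with the J protein *DNAJB1*, which stimulates the ATPase, and with *HSPH1*, which promotes nucleotide exchange. *HSP90AA1* and *HSP90AB1* encode the cytosolic HSP90 proteins, which mature kinases and steroid receptors, and *HSPD1* and *HSPE1* encode the mitochondrial chaperonin and its lid. Under heat or proteotoxic stress, the factor *HSF1* binds heat shock elements, inverted repeats of the unit NGAAN, and raises many of these genes together.

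The promoters of *HSPB1*, *HSPA8* and *HSPD1* are shown because the first belongs to the gene that was high at 1-day and the others to members whose promoters hold the longer form of that element. Each is the 250 bases before the RefSeq start site, 5′ to 3′ on the strand of the gene, in build GRCh38.p14. Capitals mark matches to heat shock elements of 2 or 3 alternating units.
*HSPB1* (chr7:76302423-76302672, plus strand): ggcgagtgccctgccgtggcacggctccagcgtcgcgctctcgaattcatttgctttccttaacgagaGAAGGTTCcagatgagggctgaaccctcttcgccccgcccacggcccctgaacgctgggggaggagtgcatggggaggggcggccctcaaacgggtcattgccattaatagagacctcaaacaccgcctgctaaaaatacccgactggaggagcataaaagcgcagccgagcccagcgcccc
*HSPA8* (chr11:123062137-123062386, minus strand): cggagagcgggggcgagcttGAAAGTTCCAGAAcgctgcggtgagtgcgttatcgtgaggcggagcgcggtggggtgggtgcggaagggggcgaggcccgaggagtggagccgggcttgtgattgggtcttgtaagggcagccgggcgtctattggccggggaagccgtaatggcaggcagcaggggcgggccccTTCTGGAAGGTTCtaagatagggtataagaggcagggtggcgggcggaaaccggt
*HSPD1* (chr2:197499841-197500090, minus strand): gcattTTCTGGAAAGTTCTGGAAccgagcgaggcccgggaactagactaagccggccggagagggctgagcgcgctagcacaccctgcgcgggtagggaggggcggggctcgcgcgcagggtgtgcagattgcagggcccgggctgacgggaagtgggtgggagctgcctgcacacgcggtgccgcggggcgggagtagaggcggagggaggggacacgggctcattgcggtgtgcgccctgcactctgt
An element of 3 units was searched as GAANNTTCNNGAA or TTCNNGAANNTTC and one of 2 units as GAANNTTC or TTCNNGAA, which covers both strands, and every 3-unit match contains 2-unit matches. Among 35116 RefSeq promoters of 300 bases (250 before and 50 after the start site), 0.490% held a 3-unit match and 13.5% a 2-unit match. All 10 genes had an entry, with 16 promoters between them. A 3-unit match lay in a promoter of *HSPA8*, *HSP90AA1*, *HSP90AB1* and *HSPD1*. The *HSPB1*, *HSPA1A* and *HSPA1B* promoters held a single 2-unit match each, 182 bases before the start in *HSPB1*. The windows searched for *HSPE1* and *HSPH1* held none. The *HSPH1* window (chr13:31162339-31162638) did not reach the main start site of that gene, at chr13:31161904. The *HSPE1* window began at chr2:197500129, beyond the sequence printed for *HSPD1*, so the *HSPD1* matches lay outside it. These windows therefore do not show that either gene lacks an element. In *HSPD1* a pair of overlapping 3-unit matches began 245 and 240 bases before the start, and in *HSPA8* the matches began 230 and 55 bases before it. A match describes letters in these windows and is not a measured site.

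The libraries held 25382817 to 32949874 UMIs (unique molecular identifiers, each counting 1 captured transcript) in 569 to 937 retained cells, with a median per cell of 30270 UMIs in Ctrl and 32393, 43553 and 43382 after 1, 3 and 7 days. Levels are CPM, the UMIs of a gene per 1000000 UMIs when all cells of a library are added up, and ratios are of these levels. Analysed cells of different libraries shared 1 to 7 barcodes per pair. All 5 TGF-β1 target genes examined were higher than in Ctrl in every treated library, with a summed level of 137 CPM in Ctrl and 3387, 3096 and 1959 CPM at 1, 3 and 7 days. Of 8 epithelial markers, *EPCAM*, *KRT7*, *KRT8*, *KRT18*, *KRT19* and *CDH1* were measured in all libraries, whereas the Müllerian factor *PAX8* stayed at or under 0.333 CPM and *MUC16* at or under 2.97 CPM. None of 4 fibroblast, 4 immune or 4 endothelial markers reached a mean of 10 CPM.

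*HSPB1* (chr7:76302673-76304295, 3 exons, GENCODE release 44) was far higher after 1 day of TGF-β1 than before it, was lower again at 3 days, and by 7 days lay slightly under its untreated level. Its level was 834 CPM in Ctrl (823.6 to 844.3), 7132 CPM at 1-day (7103 to 7160), 2421 CPM at 3-day (2404 to 2438) and 756 CPM at 7-day (745.4 to 766.8). The 1-day library was thus the highest and the 3-day library the next, and the intervals of the 4 libraries did not overlap. The 1-day level was 8.55-fold that of Ctrl, a log2 ratio of 3.10 (3.08 to 3.12), and the 3-day level was 2.90-fold, a log2 ratio of 1.54 (1.52 to 1.56). The 7-day log2 ratio to Ctrl was -0.14 (-0.17 to -0.11). Between successive treated libraries *HSPB1* was 2.95-fold lower at 3-day than at 1-day and 3.20-fold lower at 7-day than at 3-day. Among 7747 genes with a mean of at least 10 CPM over the 4 libraries, *HSPB1* had the 69th highest ratio at 1-day and the 400th highest at 3-day. At 7-day it stood at percentile 30.3. *HSPB1* accounted for 0.0834% of all UMIs in Ctrl and for 0.713%, 0.242% and 0.0756% after 1, 3 and 7 days.

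**Figure D1:**
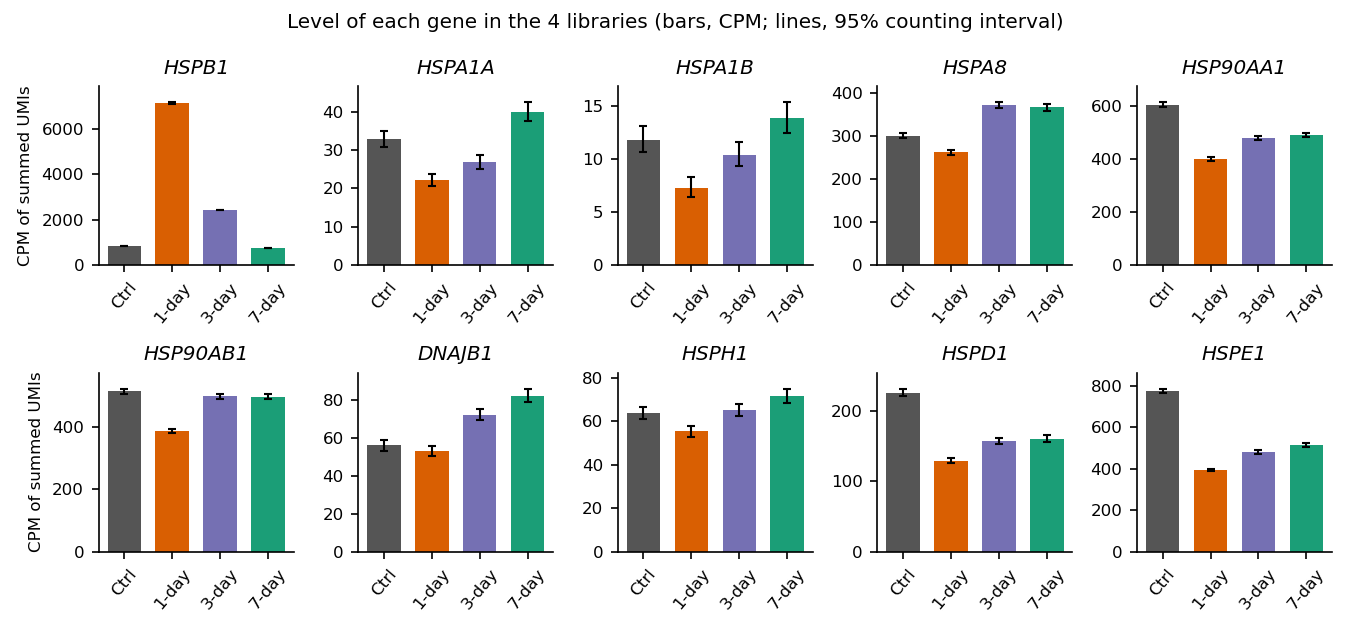
Each panel plots 1 of the 10 genes, with its level in CPM of summed UMIs on a linear axis from 0 and the 4 libraries along the x axis; black lines are 95% counting intervals. *HSPB1* alone is highest at 1-day (7132 CPM against 834 CPM in Ctrl), and in the other 9 panels the 1-day bar is the lowest of the 4, in *DNAJB1* by less than counting error.

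The rise was spread over nearly all cells of the 1-day library. Per cell, *HSPB1* was scaled to UMIs per 10000 UMIs of that cell. The median was 7.55 in Ctrl, where the SD over cells was 5.77, and 66.4 in the 1-day library, where it was 47.2. It was 18.9 after 3 days, with an SD of 20.9, and 6.85 after 7 days, with an SD of 4.91. Levels per cell reached 50.1 in Ctrl and 48.8 in the 7-day library, against 505.9 in the 1-day and 226.6 in the 3-day library. The 95th percentile of Ctrl cells was 18.8, and 901 of 937 1-day cells (96.2%) lay above it. At 3-day the cells straddled that line, with 356 of 705 (50.5%) above it, and at 7-day 19 of 569 (3.34%) were above it. Of the 3-day cells, 46.4% reached the 5th percentile of the 1-day cells (21.0), against 3.64% of Ctrl and 2.46% of 7-day cells. The 3-day median lay close to both lines, so these shares cannot tell whether the 3-day cells formed separate groups. Nearly every cell of each library held an *HSPB1* UMI (99.9% of Ctrl cells and 100% of treated cells), so the change was one of amount per cell. The 10 cells with most *HSPB1* UMIs held 3.56% of them at 1-day and 8.62% at 3-day. Without those cells in each library, the 3-day log2 ratio to Ctrl was 1.48.

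**Figure D2:**
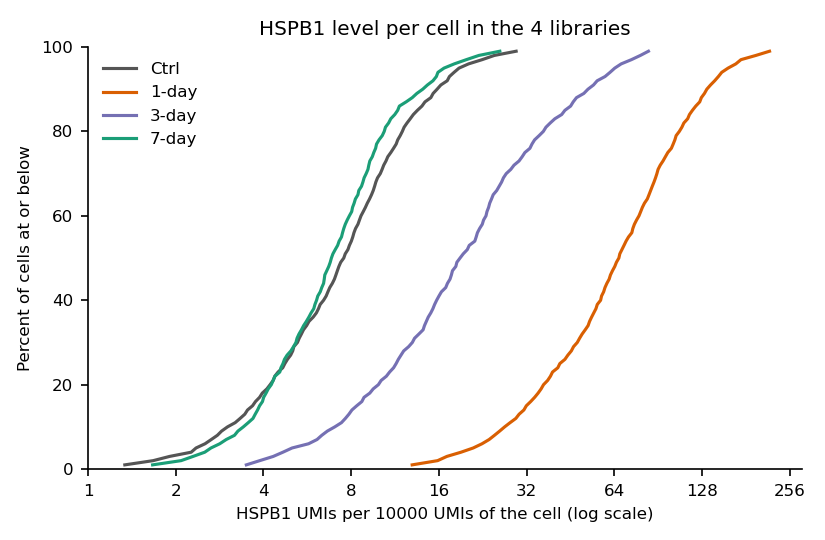
The x axis gives *HSPB1* UMIs per 10000 UMIs of a cell on a log scale, the y axis the percent of cells at or below that level, with 1 curve per library drawn from its percentiles. The Ctrl and 7-day curves run side by side (medians 7.55 and 6.85), the 1-day curve lies to their right over its whole length (median 66.4), and the 3-day curve lies between them (median 18.9).

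No other member shared the 1-day rise, and all 9 had a lower level at 1-day than in Ctrl, although *DNAJB1* differed by less than its counting error and was at a log2 ratio of 0.01 when libraries were scaled by median-of-ratios size factors and 0.03 in the earlier cells by barcode order. The lower level was not kept in every cell cycle phase. *HSPA8* was at 0.26 in G1 cells and also higher in S cells, but lower in G2M cells (343 CPM in Ctrl, 295 at 1-day). *HSPH1* was at 0.07 in G1 cells and 0.40 in S and G2M cells pooled. *HSPA1A* was not lower in S cells, of which the 1-day library held 37. Over all cells none of the 9 was at least 1.5-fold above Ctrl, where 16.9% of all genes tested were. *HSPA1B*, *HSP90AA1*, *HSPD1* and *HSPE1* were at least 1.5-fold below Ctrl, that is 4 of 9, where 17.8% of all genes tested were. *HSP90AA1* was just past that line and was short of it, at -0.51, with median-of-ratios size factors. The median log2 ratio of the 9 was -0.57, beside -0.04 over all genes tested. Taken as a sum, the 9 genes held 0.258% of UMIs in Ctrl and 0.171%, 0.216% and 0.223% after 1, 3 and 7 days. These 9 genes were picked by name with earlier results of these libraries known, so the counts describe them and do not test them.

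The stress-inducible HSP70 genes *HSPA1A* and *HSPA1B* were low at 1-day and highest at 7-day. *HSPA1A* was at 32.9 CPM in Ctrl and 22.2, 26.8 and 39.9 CPM after 1, 3 and 7 days. Its log2 ratio to Ctrl was -0.57 at 1-day (-0.71 to -0.43), just short of 1.5-fold, and 0.28 at 7-day (0.15 to 0.41). *HSPA1B* followed a like course at lower counts, with 11.8 CPM without TGF-β1, then 7.28 (1-day), 10.4 (3-day) and 13.8 CPM (7-day). Its log2 ratio was -0.70 at 1-day (-0.94 to -0.46), with intervals of -0.41 to 0.03 at 3-day and 0.01 to 0.44 at 7-day. The genes lie 9791 bases apart on chromosome 6 (*HSPA1A* at chr6:31815543-31817946, *HSPA1B* at chr6:31827738-31830254, each 1 exon). Their transcripts are 91.3% identical over their whole length and 57.5% over their last 200 bases. Whether reads were in part split between them or lost was not measured. *HSPA1A* had a UMI in 55.3% of Ctrl cells and in 45.1%, 56.0% and 65.7% of cells after 1, 3 and 7 days. After each cell was thinned to 18000 UMIs, the shares were 40.9%, 30.8%, 31.6% and 43.0%, with a mean under 1 UMI per cell in each library. These libraries hold no cell type that lacks the gene, so the share that free RNA gives could not be measured.

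The constitutive HSP70 gene *HSPA8* (chr11:123057489-123063230) stayed within 1.5-fold of Ctrl over all cells, at 299.7 CPM in Ctrl, compared with 262, 371 and 366 CPM in the 1-day, 3-day and 7-day libraries. Its log2 ratio was -0.20 at 1-day (-0.24 to -0.15), 0.31 at 3-day (0.27 to 0.35) and 0.29 at 7-day (0.25 to 0.33), each short of 1.5-fold. In G1 cells *HSPA8* passed that line at 3-day (0.60) and 7-day (0.62). The 3-day and 7-day libraries did not differ beyond counting error, with a log2 ratio between them of -0.02 (-0.06 to 0.02). *DNAJB1* (chr19:14514769-14560391), the J protein partner, was the member nearest to its Ctrl level at 1-day. It was at 56.1 CPM in Ctrl and 53.1, 72.3 and 82.5 CPM after 1, 3 and 7 days. The 1-day log2 ratio was -0.08 with an interval that spans 0 (-0.18 to 0.02), and the 7-day ratio was 0.56 (0.46 to 0.65), the highest of any member at 7-day and just short of 1.5-fold. The exchange factor *HSPH1* (chr13:31134973-31162388) stayed close to Ctrl over the course, at 63.7 CPM without TGF-β1, then 55.4 (1-day), 65.0 (3-day) and 71.5 CPM (7-day). Its log2 ratios were -0.20, 0.03 and 0.17, and its 3-day level did not differ from Ctrl beyond counting error (-0.06 to 0.12).

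Over all cells the HSP90 genes were lowest at 1-day and were higher again at 3-day and 7-day, to different extents. *HSP90AA1* (chr14:102080742-102139699), the inducible form, was at 606 CPM in Ctrl, compared with 401, 481 and 491 CPM in the 1-day, 3-day and 7-day libraries. It was 1.51-fold lower at 1-day, a log2 ratio of -0.60 (-0.63 to -0.56), and stayed lower at 3-day (-0.33) and 7-day (-0.30). Its later rise was not seen in every cell cycle phase. In G1 cells *HSP90AA1* was at 493 CPM in Ctrl and 350, 359 and 319 CPM after 1, 3 and 7 days. In G2M cells it was at 706 CPM in Ctrl, then 626, 605 and 613 CPM. In S cells it went from 337 CPM at 1-day to 520 and 538 CPM at 3-day and 7-day. *HSP90AB1* (chr6:44246166-44253888), the constitutive form, was at 513 CPM in Ctrl and 386, 496 and 495 CPM after 1, 3 and 7 days. Its log2 ratio was -0.41 at 1-day (-0.44 to -0.38) and -0.05 at both later times, so the later libraries were within 3.35% of Ctrl.

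The mitochondrial chaperonin genes had the lowest 1-day ratios of the members and stayed below Ctrl at every time. *HSPE1* was at 774 CPM without TGF-β1, then 393 (1-day), 479 (3-day) and 514 CPM (7-day). It was 1.97-fold lower at 1-day, with a log2 ratio of -0.98 (-1.01 to -0.95). Over all cells it was the only member past 1.5-fold at 3-day (-0.69, -0.72 to -0.66) and 7-day (-0.59, -0.62 to -0.56), apart from *HSPB1* at 3-day. Its 1-day ratio was the 621st lowest of 7747 genes. *HSPD1* was at 226 CPM in Ctrl, compared with 129, 157 and 161 CPM in the 1-day, 3-day and 7-day libraries, with log2 ratios of -0.81 (-0.86 to -0.75), -0.52 (-0.58 to -0.47) and -0.49 (-0.55 to -0.44). In cells thinned to 18000 UMIs the share with an *HSPD1* UMI was 95.7% in Ctrl and 85.0%, 89.2% and 92.2% after 1, 3 and 7 days (99.0%, 95.1%, 98.2% and 98.4% before thinning). The subunit genes lie head to head on chromosome 2, *HSPD1* on the minus strand (chr2:197486584-197516737) and *HSPE1* on the plus strand (chr2:197500140-197503449), with 539 bases between their main start sites. The promoter sequence printed for *HSPD1* lies in that interval. The readthrough gene *HSPE1-MOB4* overlaps *HSPE1* and had 0 UMIs in every library, which allows up to 0.100 CPM in Ctrl for reads assigned to it alone. Reads from the stretch they share cannot be told apart, so this limit does not bound the level of the readthrough gene itself.

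**Figure D3:**
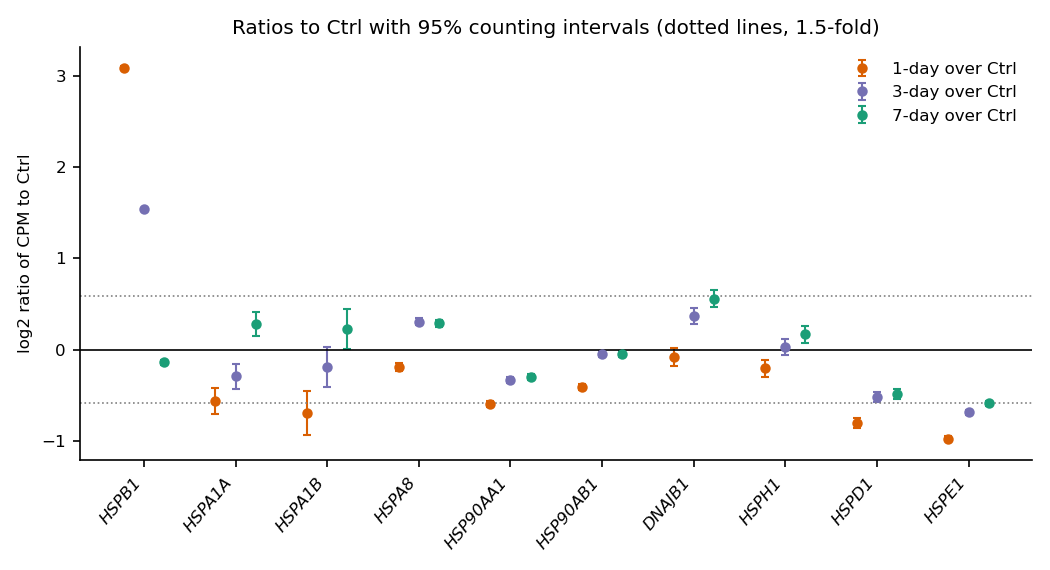
The y axis gives the log2 ratio of each gene's CPM to Ctrl for the 1-day, 3-day and 7-day libraries, with 95% counting intervals and dotted lines at 1.5-fold. *HSPB1* stands at 3.10 and 1.54 at 1-day and 3-day, while the other 9 genes lie between -0.98 and 0.56 at all 3 times.

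Over all cells, all 9 other members had a higher level at 3-day than at 1-day. The log2 ratios ran from 0.23 for *HSPH1* to 0.51 for *HSPA1B*, and *DNAJB1* and *HSPA8* were then above Ctrl. That rise was not clear in every phase. In G2M cells *HSPH1* went from 94.7 to 84.7 CPM and *HSP90AA1* from 626 to 605 CPM, each with overlapping intervals. *HSPH1*, *HSPA1A* and *HSPA8* were lower in S cells, of which the 1-day library held 37, and these intervals overlapped too. No fall from 1-day to 3-day within a phase was thus clear of counting error. *HSPA1B*, *HSP90AB1*, *DNAJB1*, *HSPD1* and *HSPE1* were higher in each phase, but only *HSP90AB1* had intervals clear of each other in all of them. *HSPD1* in G1 cells went only from 115.6 to 118.9 CPM, with overlapping intervals, and its intervals also overlapped in G2M cells. The same held for *HSPE1* in G2M cells, *DNAJB1* in S cells and *HSPA1B* in S and in G2M cells. At 3-day 0 of the 9 were at least 1.5-fold above Ctrl (19.1% of all genes tested were) and *HSPE1* alone was below (10.6% were), with a median log2 ratio of -0.19 beside 0.06 over all genes tested. In G1 cells at 3-day *HSPA8* (0.60) passed that fold above Ctrl, and *HSPD1* (-0.67) passed it below beside *HSPE1* (-0.87). In S and G2M cells pooled *HSPE1* was short of it, at -0.53. At 7-day 0 of the 10 members were at least 1.5-fold above Ctrl (21.2% of all genes tested were) and *HSPE1* alone was below (9.55% were), a call that was lost without marked doublets (-0.58) and in S and G2M cells (-0.39). The median of the 9 was then 0.17 beside 0.11 over all genes tested. The members parted at 7-day into *HSPA1A*, *HSPA1B*, *HSPA8*, *DNAJB1* and *HSPH1* above Ctrl and *HSPB1*, *HSP90AA1*, *HSP90AB1*, *HSPD1* and *HSPE1* below it, although *HSP90AB1* was at 0.01 in cells thinned to 18000 UMIs, 0.0028 as a mean over cells and 0.04 in S and G2M cells, and *HSPA1B* at -0.01 in S and G2M cells and -0.0032 in the earlier cells by barcode order. All ratios to Ctrl share the same Ctrl library.

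Cell cycle phase moved with these comparisons. Phases were assigned from lists of S and G2M genes that hold none of the 10 members. Cells assigned to G1 made up 21.3% of Ctrl and 79.1%, 45.4% and 35.3% of the libraries treated for 1, 3 and 7 days, and 21.9%, 78.8%, 46.4% and 35.0% in cells thinned to 18000 UMIs. *HSPB1* was highest in G1 cells in the Ctrl, 1-day and 3-day libraries. In Ctrl it was at 1031 CPM in G1, 856 in S and 730 in G2M cells, and at 1-day at 7710, 4805 and 5230 CPM. At 7-day the phases were alike, at 769, 750 and 749 CPM. Within G1 cells alone the 1-day log2 ratio of *HSPB1* was 2.90. Within S and G2M cells pooled, a comparison added after the data had been seen, it was 2.71. The pool held 339 S and 395 G2M cells in Ctrl but 37 and 159 at 1-day. Its ratios therefore also carry that change in mix.

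*HSPA8*, *HSP90AA1*, *HSP90AB1*, *HSPH1*, *HSPD1* and *HSPE1* were higher in G2M than in G1 cells of every library. *HSPH1* was at 42.9 CPM in G1 and 78.7 in G2M cells of Ctrl, and at 45.0 and 94.7 CPM at 1-day. Its 1-day log2 ratio, -0.20 over all cells, was 0.07 within G1 cells and 0.40 within S and G2M cells. *HSPA8* was at 205 CPM in G1 cells of Ctrl and 245 in those of the 1-day library. Its 1-day ratio was 0.26 in G1 cells against -0.20 over all cells and -0.02 in S and G2M cells pooled. The pooled phases went opposite ways: S cells were at 298 CPM in Ctrl and 429 at 1-day, G2M cells at 343 and 295. Within phases, then, *HSPH1* was not lower at 1-day, and *HSPA8* was higher in G1 and S cells and lower in G2M cells. At 1-day *DNAJB1* was within 0.21 of Ctrl on the log2 scale in G1 cells and in the pool. *HSP90AA1* was -0.50 in G1 cells and -0.14 in S and G2M cells pooled at 1-day, short of 1.5-fold in each. The pool hid a larger difference in S cells, 545 CPM in Ctrl (532 to 559) and 337 at 1-day (306 to 371). In G2M cells *HSP90AA1* was at 706 and 626 CPM. *HSPE1* kept a lower level in G1 cells and in the pool, at -0.99 and -0.61, and so did *HSPD1*, at -0.71 and -0.42. *HSPA1A* was at -0.57 and -0.69, *HSPA1B* at -0.76 and -0.65, and *HSP90AB1* at -0.30 and -0.20. These 3 were thus lower in G1 cells and in the pool as well. *HSPA1A* was not lower in S cells taken alone, at 32.2 CPM in Ctrl and 36.4 at 1-day (26.7 to 48.4, 47 UMIs). In G2M cells *HSPA1A* was at 33.1 and 16.8 CPM. At 7-day G1 cells differed more than the whole library did: *HSPA8* (0.62) and *DNAJB1* (0.63) passed 1.5-fold above Ctrl, and *HSP90AA1* (-0.63), *HSPD1* (-0.84) and *HSPE1* (-1.04) passed it below. The part of phase in the ratios over all cells was not tested further.

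**Figure D4:**
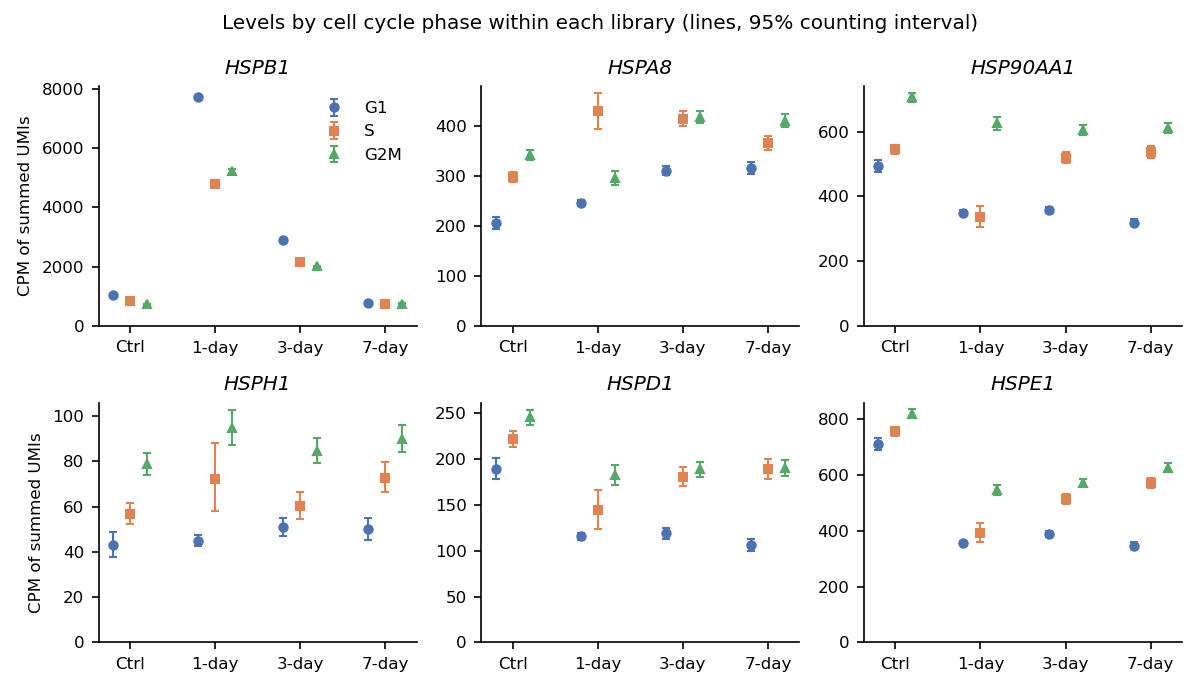
Each panel plots 1 gene, with CPM of summed UMIs on the y axis from 0, the 4 libraries on the x axis and 1 symbol per assigned phase; lines are 95% counting intervals. *HSPB1* is highest in G1 cells at 1-day (7710 CPM against 5230 in G2M cells), whereas the other 5 genes plotted (*HSPA8*, *HSP90AA1*, *HSPH1*, *HSPD1* and *HSPE1*) are higher in G2M than in G1 cells of every library.

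From cell to cell within a library, correlations of *HSPB1* with the other members lay between -0.12 and 0.09 in the Ctrl, 1-day and 3-day libraries and reached 0.26 at 7-day. In cells thinned to 18000 UMIs, Spearman's rho of *HSPB1* with the other 9 ran from -0.12 to 0.07 in Ctrl (844 cells), -0.12 to 0.08 at 1-day (900 cells), -0.08 to 0.09 at 3-day (677 cells) and -0.04 to 0.26 at 7-day (549 cells), where *HSPE1* had 0.26 and *HSP90AA1* 0.25. *HSP90AA1* and *HSPE1* had a rho of 0.30 without TGF-β1, then 0.43 (1-day), 0.38 (3-day) and 0.52 (7-day), the highest of the 36 pairs among those 9 in each treated library. *HSP90AA1* and *HSPD1* had 0.32 in Ctrl and 0.34 to 0.35 in treated libraries. Cells of 1 library share its preparation and their phase was not held fixed, so these values are descriptions.

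Other chaperone groups of the cytosol held few genes past 1.5-fold at 1-day, when 16.9% of all genes tested were above Ctrl by that fold and 17.8% below. Of 11 HSP90 co-chaperones tested, 0 were above and 2 below, the latter a share near that of all genes, with a median log2 ratio of -0.17. *FKBP4*, an immunophilin of steroid receptor complexes, went from 85.6 CPM in Ctrl to 46.3 at 1-day (-0.89) and 72.7 and 74.9 at 3 and 7 days. *STIP1*, which joins HSP70 to HSP90, was at -0.42, and *PTGES3*, the p23 co-chaperone, at -0.40. All 8 subunit genes of the cytosolic chaperonin TRiC were below Ctrl at 1-day without reaching 1.5-fold (6 of 8 with median-of-ratios size factors), with a median of -0.19 and *TCP1* lowest at -0.45. Of 6 prefoldin genes 3 were above and 3 below Ctrl at 1-day, *PFDN5* being at 0.44. Of 11 further J proteins 1 was above and 1 below by 1.5-fold at 1-day. The one above was *DNAJB2*, at 1.26, 0.77 and 0.62 after 1, 3 and 7 days, and the one below was *DNAJC2* (-0.73), while *DNAJA1* was at -0.20. Of 4 further HSP70 and HSP110 genes tested 2 were below by 1.5-fold, *HSPA4L* (-1.15) and *HSPA14* (-0.77), and 0 above. A pair of HSP70 genes too low to be counted, singled out after their values were seen, were higher in the treated libraries. *HSPA6*, a strictly stress-inducible HSP70 gene, had 2 UMIs in Ctrl and 31, 53 and 17 UMIs after 1, 3 and 7 days, with a 1-day log2 ratio of 3.82 (1.84 to 6.93). *HSPA2* had 13 UMIs in Ctrl, then 29 (1-day), 35 (3-day) and 42 UMIs (7-day), with a 1-day log2 ratio of 1.02 (0.03 to 2.09).

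The HSP70 cofactors held a pair that moved in opposite directions. *BAG3*, which couples HSP70 to small heat shock proteins and to selective autophagy, was at 33.4 CPM in Ctrl, compared with 59.0, 64.7 and 52.0 CPM in the 1-day, 3-day and 7-day libraries, with log2 ratios of 0.82, 0.96 and 0.64. It was the only cofactor of the 5 tested that was at least 1.5-fold above Ctrl, and it was so in all 3 treated libraries, although at 7-day 0 of the 5 were when median-of-ratios size factors were used. *BAG1* was at 97.7 CPM in Ctrl and 47.2, 40.0 and 50.1 CPM after 1, 3 and 7 days, with log2 ratios of -1.05, -1.29 and -0.96. *HSPBP1* was at -0.16 at 1-day.

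Most chaperone genes of the mitochondria were below Ctrl at 1-day, and those of the endoplasmic reticulum (ER) were above it. Of 9 further mitochondrial chaperone and protease genes, 8 had a negative ratio at 1-day, 4 were at least 1.5-fold below Ctrl (3 with median-of-ratios size factors), where 17.8% of all genes tested were, and 0 were above, with a median of -0.44. *HSPA9*, the mitochondrial HSP70, was at 81.3 CPM without TGF-β1, then 60.1 (1-day), 66.4 (3-day) and 72.1 CPM (7-day). By contrast, 10 of 13 ER chaperone genes tested were at least 1.5-fold above Ctrl at 1-day, where 16.9% of all genes tested were, and 0 below, with a median of 0.80, which fell to 0.39 at 3-day and 0.33 at 7-day. *HSPA5*, the ER HSP70, was at 130 CPM in Ctrl, compared with 393, 174 and 174 CPM in the 1-day, 3-day and 7-day libraries, a log2 ratio of 1.60 at 1-day. *DNAJC3* was at 1.35 and the calcium-binding chaperone *CALR* at 1.13. The ER genes thus shared with *HSPB1* a highest level at 1-day, in the median, but by smaller ratios.

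**Figure D5:**
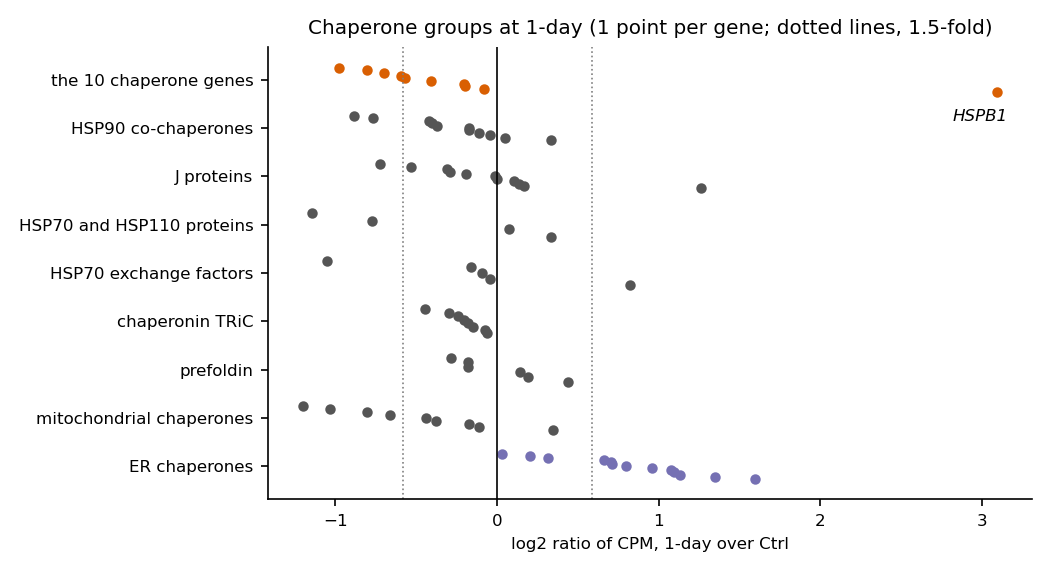
The x axis gives the log2 ratio of CPM at 1-day over Ctrl, with 1 point per gene, 1 row per chaperone group and dotted lines at 1.5-fold. *HSPB1* (3.10) stands apart at the right, the other 9 genes of its row lie below 0 (*DNAJB1* by less than its counting error, and at 0.01 with median-of-ratios size factors), and all 13 ER chaperone genes lie above 0.

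The remaining small heat shock protein genes were low in these cells. None of the 8 reached a mean of 10 CPM, so none was counted. The 2 with the highest levels, singled out after their values were seen, were *CRYAB* and *HSPB8*. *CRYAB*, which encodes αB-crystallin, was at 12.6 CPM in Ctrl and 4.16, 0.404 and 0.197 CPM after 1, 3 and 7 days. *HSPB8*, the partner of *BAG3*, was at 2.10 CPM without TGF-β1, then 7.86 (1-day), 8.25 (3-day) and 5.32 CPM (7-day). *CRYAB* was thus below Ctrl in all 3 treated libraries and lowest at 7-day, and *HSPB8* was above Ctrl in all 3. *HSF1*, the main heat shock factor, was at 82.1 CPM in Ctrl, compared with 86.4, 96.5 and 97.8 CPM in the 1-day, 3-day and 7-day libraries, and its binding partner *HSBP1* had a 1-day log2 ratio of 0.33. Neither reached 1.5-fold, and the mRNA level of a factor says nothing of its activity.

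The genes with a course most like that of *HSPB1* were not chaperones. Likeness was the Euclidean distance over the log2 ratios to Ctrl at the 3 times, among 2706 genes with a mean of at least 50 CPM. The nearest were *COL27A1* (distance 1.11), *CRIP2* (1.21), *LMCD1* (1.28), *CTSH* (1.30) and *RHOD* (1.32). *COL27A1*, a fibrillar collagen gene, was at 24.9 CPM in Ctrl and 105, 55.2 and 25.7 CPM after 1, 3 and 7 days. *CTSH*, which encodes the lysosomal protease cathepsin H, was at 230 CPM without TGF-β1, then 838 (1-day), 611 (3-day) and 275 CPM (7-day). *RHOD*, a small GTPase gene, was at 206 CPM in Ctrl, compared with 749.8, 460.5 and 222 CPM in the treated libraries. All 5 were highest at 1-day, as *HSPB1* was, which their choice by these same ratios favours. Each had a smaller 1-day ratio than *HSPB1*, from 1.86 to 2.69.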

How the data were processed

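OVCA420 cells were profiled by 10x Genomics 3′ scRNA-seq (Ctrl, 1-day, 3-day and 7-day, 1 library each). The deposited values are UMI counts per gene and cell, which the authors made with Cell Ranger 2.0.1 on GRCh38 without normalization. Of 10710 listed barcodes, the first 3170 in barcode order were read and the rest were not analysed here. Cells with more than 200 genes and at most 20% mitochondrial UMIs were retained (3144 cells). Scrublet in scanpy 1.11.5 marked 40 cells as doublets (1.27%), which were retained except in 1 alternative. Cell cycle phases were assigned from the lists in Seurat 5.3.0.

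UMIs were summed per library and scaled to CPM, with exact Poisson intervals for levels, exact conditional intervals for ratios and exact binomial intervals for shares of cells. No test was run, since each group held 1 library. Genes with a mean of at least 10 CPM were counted past 1.5-fold. The text names all 10 members, up to 3 genes per chaperone list by 1-day ratio (mean of at least 50 CPM), and the 5 genes nearest to *HSPB1*. *DNAJB2*, *HSPA4L*, *HSPA14*, *HSPA6*, *HSPA2*, *CRYAB* and *HSPB8* have lower means and were named outside that rule, after their values were seen. The members and lists were chosen with earlier results of these data known. Alternatives were another scaling, means over cells, thinning, phases, cell filters and parts of the cells. S and G2M cells alone, and library totals without *HSPB1*, were added after seeing the data. One gene of a list is not reported here. Gene positions are from GENCODE release 44 and promoters from RefSeq, both GRCh38. The calculations were tested on simulated data (Python 3.11.15, R 4.3.3).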

Additional observations from a re-analysis of the deposited data

Results flagged for a closer look

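Members whose 1-day and 7-day libraries lay on opposite sides of Ctrl, with both counting intervals clear of 0, are listed here, since the direction of the difference turned between those times. For *HSPB1* the log2 ratio was 3.10 at 1-day and -0.14 at 7-day. *HSPA1A* had -0.57 at 1-day and 0.28 at 7-day, and its neighbour *HSPA1B* had -0.70 and 0.22. *HSPA8* had -0.20 and 0.29, and *HSPH1* had -0.20 and 0.17. Over all cells *HSPB1* thus went from above Ctrl to below it, and the 4 others went from below to above. That turn was not kept in every class of cells. At 1-day *HSPA8* was at 0.26 in G1 cells and *HSPH1* at 0.07 in G1 and 0.40 in S and G2M cells pooled. At 7-day *HSPA1B* was at -0.01 in S and G2M cells pooled and -0.0032 in the earlier cells by barcode order. The difference between the times was not tested, with 1 library per time, and both ratios of a gene share the Ctrl library.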

How the results depend on the processing

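With 1 library per group, biological spread could not be measured, and only part of each library was analysed. No paired analysis was possible because each group has 1 library and no test was made. The *HSPB1* log2 ratio to Ctrl at 1-day (3.10) was 3.18 with median-of-ratios size factors, 3.12 as a mean over cells, 2.90 in G1 cells, 2.71 in S and G2M cells, 3.14 in the earlier and 3.05 in the later cells by barcode order. At 3-day (1.54) it was 1.56 with those size factors, 1.49 in G1 cells, 1.40 in S and G2M cells, 1.63 in the earlier and 1.45 in the later cells, and 1.48 without the 10 cells with most *HSPB1* UMIs. At 7-day (-0.14) it was -0.20 with those size factors, -0.42 in G1 cells, -0.070 in S and G2M cells, -0.088 in the earlier and -0.20 in the later cells. Of the other 9 members, 4 were at least 1.5-fold below Ctrl at 1-day, 3 to 5 under the alternatives at this fold and 0 at 2-fold, while 0 were above under every alternative tried. At 7-day, 2 members were above in G1 cells (0 over all cells). The count below at 7-day, 1 over all cells, was 3 in G1 cells and 0 in S and G2M cells, without marked doublets or at 2-fold. Of 324 alternative ratios of the other members, 238 lay within the counting interval of the reported ratio, 17 changed sign, and none of these 17 had been past 1.5-fold. *DNAJB1* at 1-day was 0.01 with median-of-ratios size factors. This scaling moved the median of all genes from -0.04 to 0.04 at 1-day and from 0.11 to 0.05 at 7-day. The causes were not tested.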

Other observations

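Across the cells of the 3-day library, in which *HSPB1* varied widely around the upper end of Ctrl, the genes most correlated with *HSPB1* were mainly keratin and cytoskeletal genes. This comparison was chosen after the data had been seen and covers 2706 genes with a mean of at least 50 CPM in 677 cells thinned to 18000 UMIs. *KRT17*, a keratin of stressed and basal epithelia, had a Spearman's rho of 0.60, *KRT7* 0.42, *PDLIM1*, which binds the actin linker α-actinin, 0.38, the galectin *LGALS3* 0.37 and the myosin light chain *MYL6* 0.37. The lowest was *HMGA1*, a chromatin protein, at -0.47. At 1-day (900 cells) the 5 highest were *SLC9A3R1* (0.38), *KRT8* (0.37), *LGALS3* (0.36), *MYL6* (0.34) and *SFN* (0.33), and *HMGA1* was again the lowest, at -0.38. At 7-day (549 cells) they were *UPK1B* (0.31), *CFL1* (0.28), *PSMB3* (0.28), *PRDX1* (0.27) and *KRT8* (0.27), and the lowest was *TPT1*, at -0.31. Cells of a library share its preparation, and phase was not held fixed.

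Some other genes linked to stress followed other courses. The autophagy receptor *SQSTM1* was at 431 CPM in Ctrl and 298, 257 and 318 CPM after 1, 3 and 7 days. Of 9 immediate early genes tested, 5 were at least 1.5-fold above Ctrl at 1-day (16.9% of all genes tested were) and 1 below (17.8% were), with a summed level of 442 CPM in Ctrl and 989, 831 and 768 CPM at 1, 3 and 7 days. *JUN* was at 59.9 CPM without TGF-β1, then 236 (1-day), 138 (3-day) and 111 CPM (7-day). *IER3* had its highest level at 7-day, with log2 ratios of 1.13, 1.64 and 2.25.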
